A study of Caenorhabditis elegans with 2 samples.

Results

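The mitochondrial ribosomal protein genes were followed in a map of RNT-1 on chromatin. They are the nuclear protein-coding genes of Caenorhabditis elegans whose symbols begin with mrpl- or mrps-, and they number 70 of 19973. By symbol, 41 are named for the large subunit (mrpl-) and 29 for the small subunit (mrps-). Large and small subunit genes below are split by symbol alone, and the place of each protein in the ribosome was not checked. The single group of samples was strain OP462 as whole hermaphrodite late embryos, taken 5 h after the worms were synchronized by bleaching, in 2 biological replicates of 1 library each. All samples carried the unc-119 allele tm4063 and the transgene insertion wgIs462, from which RNT-1 is made with GFP and FLAG at its C-terminus. The sample notes give an antibody against GFP, whereas the antibody field reads rnt-1. With 1 group there was no contrast between conditions, whole animals do not resolve the cells that a signal came from, and lists of regions hold no expression values to check the stage.

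RNT-1 is the RUNX transcription factor of the worm, known for its part in the divisions of the epidermal seam cells. RUNX proteins bind DNA through their Runt domain together with a partner protein. The mitochondrial ribosome translates the few proteins that mitochondrial DNA encodes, which are subunits of the respiratory chain and the ATP synthase. Its proteins are encoded in the nucleus, made in the cytosol and imported. In worms, loss of some of them, mrps-5 among them, is known to lengthen life and to raise the mitochondrial stress response.

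Regions came from narrowPeak lists on ce11, each with a summit and a signal, which is a score of the authors with no stated scale. The shortest was cut by the irreproducible discovery rate (IDR), a measure of how alike replicates rank regions, and held 1931 peaks down to a signal of 95.8. They were the strongest regions of the pooled list, which held 19793 regions with background kept, down to 29.4. The list of replicate 1 held 18427 regions and that of replicate 2 held 21390. For each annotated start a window was taken that reached 1000 bp upstream and 200 bp downstream, and a gene was counted when a summit fell in a window of its own. In this way 1 summit can count for several genes.

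At the cut of the IDR list, RNT-1 summits were found at few of these genes. An IDR summit lay at 5 of the 70 mitochondrial ribosomal genes, a share of 7.14% (95% Wilson interval 3.09 to 15.7%), against 6.75% of all protein-coding genes, so the share was near the background. The 5 were mrps-35, mrpl-15, mrpl-23, mrpl-18 and mrpl-45. By subunit the counts were 4 of 41 for the large subunit (9.76%) and 1 of 29 for the small subunit (3.45%), and with so few genes the difference between the subunits was not tested. Of the 78 genes for proteins of the cytosolic ribosome, 39 had an IDR summit (50%).

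**Figure D1:**
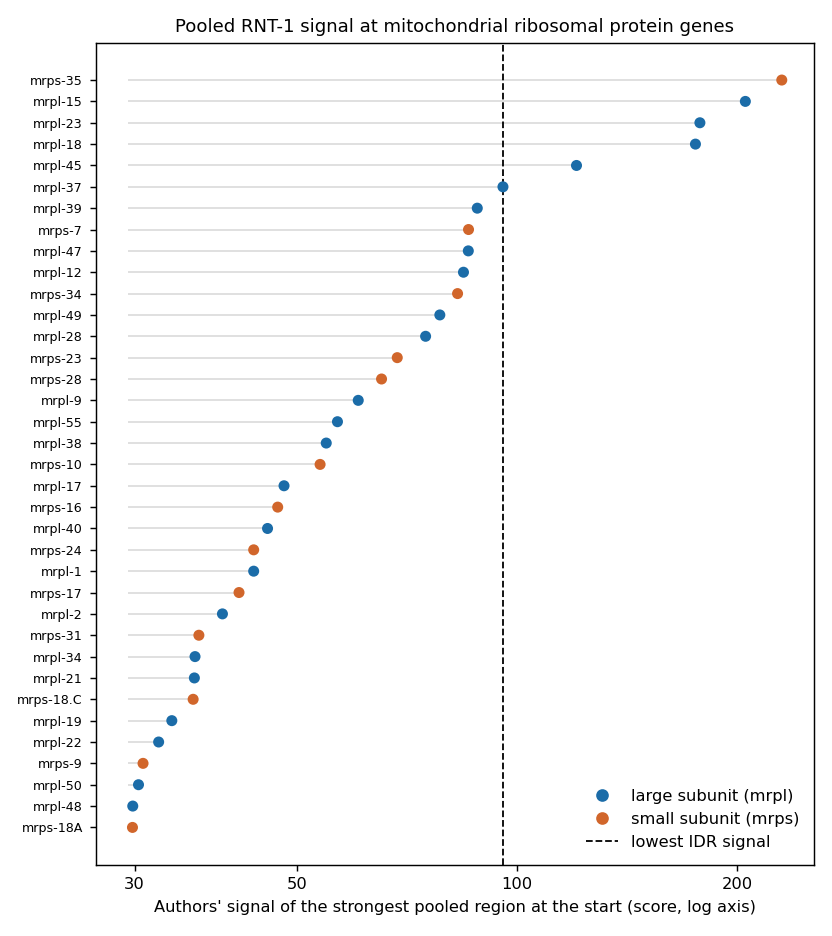
Authors' signal of the strongest pooled region at each of the 36 mitochondrial ribosomal genes that had one, on a log axis, with genes down the page from the highest to the lowest. Blue points are large subunit genes, orange points small subunit genes, and the dashed line is the lowest signal of the IDR list. The points of 5 genes lie clearly to the right of the line, and mrpl-37 lies just to the left of it at 95.6.

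The DNA at the summits is shown for mrpl-18 and mrpl-45, which had IDR summits, and for mrpl-37, mrpl-39, mrps-7 and mrpl-12, which were 4 of the next 5 below the cut. The other of those 5, mrpl-47, is not printed. Each run is 101 bases centred on the pooled summit, 5′ to 3′ on the strand of the gene, from RefSeq's WBcel235 assembly (ce11). Capitals mark ACGCAG, a word that was common at RNT-1 peaks in earlier results of these data. The positions are chrIII:8144727-8144827 on the + strand for mrpl-18, chrIII:1202290-1202390 on the - strand for mrpl-45 and chrII:13575682-13575782 on the - strand for mrpl-37. They are chrV:1821418-1821518 on the + strand for mrpl-39, chrIV:14767826-14767926 on the - strand for mrps-7 and chrIII:10707187-10707287 on the + strand for mrpl-12.
mrpl-18: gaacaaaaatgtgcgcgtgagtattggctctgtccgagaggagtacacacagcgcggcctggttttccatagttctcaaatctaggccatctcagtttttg
mrpl-45: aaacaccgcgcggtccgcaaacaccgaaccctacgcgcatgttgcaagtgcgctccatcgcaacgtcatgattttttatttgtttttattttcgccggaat
mrpl-37: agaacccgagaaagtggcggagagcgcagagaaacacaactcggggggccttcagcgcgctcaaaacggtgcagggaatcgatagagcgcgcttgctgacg
mrpl-39: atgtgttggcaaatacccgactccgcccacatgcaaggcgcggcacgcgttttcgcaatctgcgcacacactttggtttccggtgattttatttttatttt
mrps-7: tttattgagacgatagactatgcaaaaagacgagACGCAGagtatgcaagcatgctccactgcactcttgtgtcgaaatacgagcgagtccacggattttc
mrpl-12: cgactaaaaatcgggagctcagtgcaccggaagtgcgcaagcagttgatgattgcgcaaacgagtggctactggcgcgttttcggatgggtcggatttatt

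The words searched were first counted at the IDR summits. The RUNX core was TGTGGT or TGCGGT on either strand, and 0 of the 5 IDR summits at these genes had it within 50 bp, which with 5 summits allows a share of up to 60%. Of the 1061 IDR summits at any protein-coding start, 146 had it (13.8%). GAGAGA and ACGCAG, both searched on both strands and both taken from earlier results of these data, were also at 0 of the 5, against 26.4% and 15.3% of the 1061. In the whole peak the core stood at mrpl-18 alone of the 5, 198 bp from the summit, against 31.9% of the 1061 peaks. Of the next 5 genes below the cut, mrpl-47 had the core within 50 bp of its summit. The stretch around the mrpl-18 core, chrIII:8144562-8144591 on the + strand, is printed with the core in capitals.
mrpl-18 core: ccatgaacagaaTGCGGTcgagacggaccc

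The signals at the 5 genes fell in the upper part of each list in both replicates. Ranks below are by signal, with 1 as the strongest region. For mrps-35, known in mammals as a protein of the small subunit that bacteria lack, the pooled signal was 230 at rank 248, with 149 at rank 215 in replicate 1 and 74.95 at rank 476 in replicate 2. The peak, on chromosome V from 18981110 to 18981275, was 166 bp wide, where the other 4 were 436 bp wide. Its summit lay 109 bp upstream of the mrps-35 start, in the 5′ UTR of sws-1, whose start was 47 bp away on the opposite strand.

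The large subunit genes mrpl-18 and mrpl-45 shared their summits with neighbours as well. For mrpl-18, the relative of bacterial L18, the pooled signal was 175 at rank 549, with 117 at rank 421 in replicate 1 and 54.9 at rank 1003 in replicate 2. That summit lay 238 bp upstream of mrpl-18 and 148 bp from the start of C14B9.8, in a peak on chromosome III from 8144559 to 8144994. For mrpl-45, whose mammalian relative ties the mitochondrial ribosome to the inner membrane, the pooled signal was 121 at rank 1256, with 76.2 at rank 1209 in replicate 1 and 43.0 at rank 1619 in replicate 2. It was the weakest of the 5 in both replicates, and its summit lay 332 bp upstream of mrpl-45 and 206 bp from Y119D3B.12, in a peak on chromosome III from 1202122 to 1202557.

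The other two IDR peaks stood farther from the gene. For mrpl-15, the relative of bacterial L15, the pooled signal was 205 at rank 335, with 102 at rank 612 in replicate 1 and 97.2 at rank 213 in replicate 2, the highest value of the 5 in replicate 2. The summit, in a peak on chromosome I from 1435428 to 1435863, lay 633 bp upstream, between genes, with no other protein-coding start in reach. That peak held 22 overlapping positions of GAGAGA in runs of the repeat, the nearest 60 bp from the summit. It was the only 1 of the 5 peaks with GAGAGA (20%), against 52.2% of the 1061 IDR peaks at any protein-coding start.

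For mrpl-23, the relative of the bacterial L23 at the exit of the peptide tunnel, the pooled signal was 178 at rank 528, with 94.2 at rank 744 in replicate 1 and 79.5 at rank 397 in replicate 2. The summit lay 995 bp upstream, close to the edge of the window, in a peak on chromosome I from 6212662 to 6213097. It was inside an intron of fars-1, a phenylalanyl-tRNA synthetase gene whose end is 95 bp ahead of mrpl-23 on the same strand. The starts of a snoRNA gene, T08B2.13, and of a non-coding RNA gene, T08B2.14, also had this summit in their windows. Across the 5 peaks no replicate summit was more than 19 bp from the pooled one.

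A further group of 5 genes stood just below the cut. For mrpl-37, known in mammals as a large subunit protein that bacteria lack, the pooled signal was 95.6 at rank 1934, with 55.3 at rank 2213 in replicate 1 and 38.9 at rank 1955 in replicate 2. Its summit, at -664 bp, was 193 bp from the start of lin-38. For mrpl-39 the pooled signal was 88.2 at rank 2252, with 53.8 at rank 2340 in replicate 1 and 40.1 at rank 1852 in replicate 2. Its summit, at -111 bp, was 145 bp from gly-7, a glycosyltransferase gene.

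For mrps-7, the relative of the bacterial S7 in the head of the small subunit, the pooled signal was 85.8 at rank 2359, with 50.9 at rank 2620 in replicate 1 and 39.5 at rank 1898 in replicate 2. The ACGCAG printed above was 11 bp from its summit, at -146 bp, and a RUNX core was 154 bp away. The start of Y57G11C.3 was 325 bp from that summit. For mrpl-47 the pooled signal was 85.8 at rank 2364, with 52.5 at rank 2454 in replicate 1 and 31.3 at rank 2844 in replicate 2, and a RUNX core was 44 bp from its summit at -849 bp. For mrpl-12, the relative of the bacterial stalk protein L12, the pooled signal was 84.5 at rank 2435, with 45.7 at rank 3210 in replicate 1 and 33.6 at rank 2518 in replicate 2. All 5 were within the 2450 strongest pooled regions, as many as the authors' IDR list on ce10 holds. At that length 10 of the 70 mitochondrial ribosomal genes had a summit (14.3%), against 8.18% of all protein-coding genes.

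**Figure D2:**
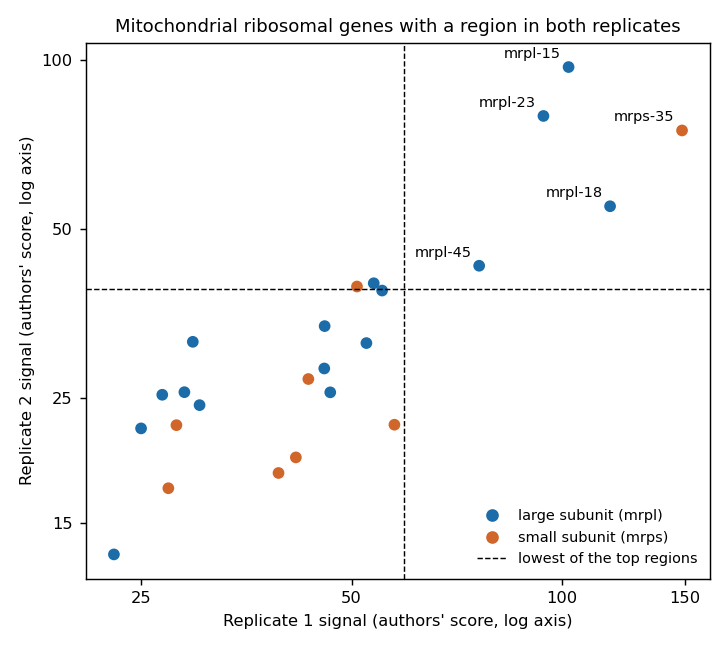
Authors' signal in replicate 1 (x axis) and replicate 2 (y axis), both on log axes, for the 24 mitochondrial ribosomal genes with a region in both. Dashed lines mark the lowest of the 1931 strongest regions of each replicate, 59.4 in replicate 1 and 39.1 in replicate 2, and the 5 genes with an IDR summit are the points above and to the right of both lines.

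The genes at the top of replicate 1 were also at the top of replicate 2. Among the 1931 strongest regions of a replicate, 5 of the mitochondrial ribosomal genes had a summit in replicate 1 (7.14%), against 6.63% of all protein-coding genes, and 7 had one in replicate 2 (10%), against 6.62%. The 5 with an IDR summit were those in the top of both, a share of 7.14% against 5.15%, and replicate 2 added mrpl-39 and mrps-7. Over the 24 genes with a region in both replicates, Spearman's rho was 0.82 and Pearson's r of the log2 signals was 0.86. Over the 4421 protein-coding genes with both they were 0.75 and 0.83. These describe the lists, since every point comes from the same pair of libraries and genes can share a region. In each replicate the strongest region in the window was taken, so a pair can be different regions. At mrps-31 the summits lay at -887 bp in replicate 1 and -123 bp in replicate 2.

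Weaker regions were found at many more of these genes. A pooled region of any strength lay at 36 of the 70 mitochondrial ribosomal genes, 51.4% (95% Wilson interval 40.0 to 62.8%), against 31.4% of all protein-coding genes. By subunit these were 23 of 41 large subunit genes (56.1%) and 13 of 29 small subunit genes (44.8%). A region was listed at 30 of the 70 in replicate 1 (42.9%, against 29.5%), at 35 in replicate 2 (50%, against 33.5%) and at 24 in both (34.3%, against 22.1%). The pooled list keeps background regions, and mrpl-1 and mrps-24, which are neighbours, share 1 region, so the 36 genes have 35 regions.

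**Figure D3:**
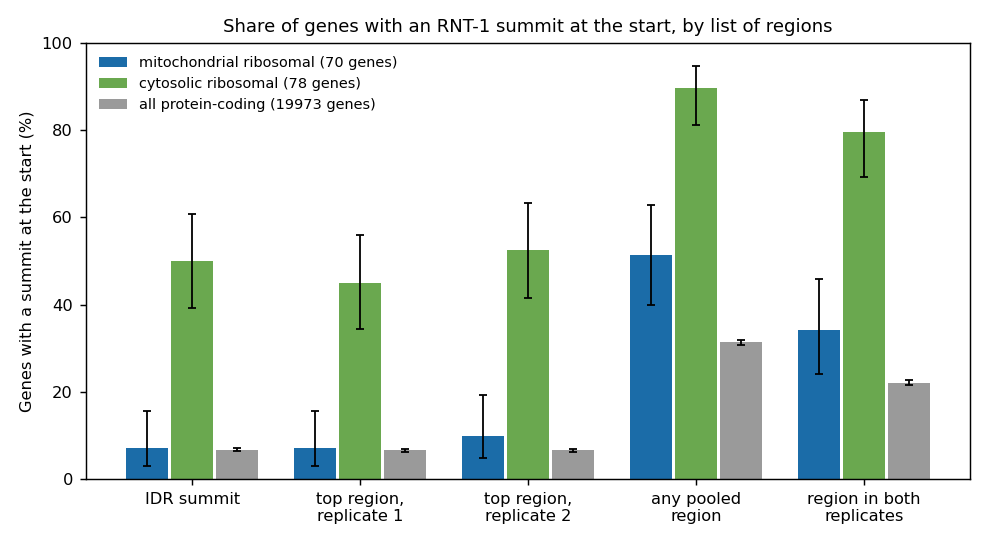
Share of genes, in percent, with a summit from 1000 bp upstream to 200 bp downstream of a start, in each list of regions, for the mitochondrial ribosomal genes (blue, 70 genes), the cytosolic ribosomal genes (green, 78 genes) and all protein-coding genes (grey, 19973 genes). Bars are shares and whiskers 95% Wilson intervals, which cover counting error only. The blue and grey bars are 7.14% and 6.75% for IDR summits and 51.4% and 31.4% for any pooled region.

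The strength of those regions was close to that of regions at other genes. Where there was a pooled region, its median signal was 54.3 at the mitochondrial ribosomal genes (interquartile range 36.6 to 84.8, n = 36) and 50.3 at all protein-coding genes (37.5 to 86.4, n = 6268). At the cytosolic ribosomal genes it was 108 (n = 70). The 26 mitochondrial ribosomal genes with a region below rank 2450 had pooled signals of 29.8 to 82.9. Of all 36, 24 had a region in both replicates, 10 in 1 replicate and 2, mrpl-48 and mrpl-50, in neither.

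The remaining 34 genes had no pooled region. Of these, 6 had a region in replicate 2, namely mrpl-4, mrpl-16, mrpl-20, mrpl-36, mrpl-44 and mrps-12, with signals of 13.0 to 17.4 in a list that starts at 11.7. The gene mrps-25 had one in replicate 1, of 46.8 at rank 3071. The other 27 had no region in any of the 3 lists. Among them was mrps-5, whose nearest IDR summit was 33527 bp away and whose start lies 103 bp behind sel-1 on the same strand. For the 65 genes with no IDR summit in the window, the nearest one was at a median of 13531 bp (1045 to 79560 bp) from a start. These distances were not measured over all protein-coding genes, so they cannot show whether these genes lie far from summits.

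Summit positions were compared within the windows. The window rule alone keeps every counted summit from 1000 bp upstream to 200 bp downstream of a start, so closeness to a start is not a result. The median position of the pooled summit was -177 bp at the mitochondrial ribosomal genes (interquartile range -345.5 to -111.75 bp, n = 36) and -265 bp at all protein-coding genes (-556 to -99 bp, n = 6268). From the start to 400 bp upstream lay 24 of the 36 (66.7%), against 51.2% of the 6268. At the cytosolic ribosomal genes this was 56 of 70 (80%), so the position was not particular to the mitochondrial ribosomal genes. For IDR summits it was 3 of 5 at the mitochondrial ribosomal genes (60%), against 64.3% of the 1349 protein-coding genes with one. Of the 35 regions, 24 had their summit between protein-coding genes, 8 in a coding exon, 2 in an intron and 1 in a 5′ UTR. No such shares over the pooled summits of all protein-coding genes are set beside these counts.

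**Figure D4:**
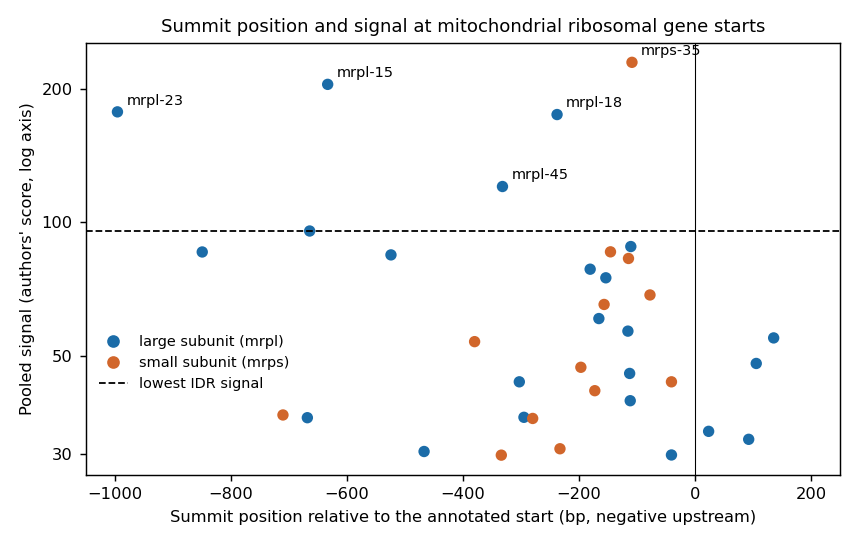
Position of the pooled summit relative to the annotated start in bp (x axis, negative upstream) and the authors' signal on a log axis (y axis) for the 36 mitochondrial ribosomal genes with a pooled region. Blue points are large subunit genes and orange points small subunit genes, and the dashed line is the lowest IDR signal. Most points lie within 400 bp upstream of the start, while mrpl-23 and mrpl-15, above the line, lie at -995 and -633 bp.

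Many of the summits lay at the start of a neighbour too. Another protein-coding start had the same pooled summit in its window at 23 of the 36 mitochondrial ribosomal genes (63.9%), against 32.1% of all protein-coding genes with a pooled region. For IDR summits this was 3 of 5 (60%), against 47.6%. Examples among weaker regions are mrpl-49, with a pooled signal of 78.4 and rpl-28, a gene of the cytosolic ribosome, 338 bp from the summit, and mrpl-9, with 60.6 and the casein kinase subunit gene kin-3 at 190 bp.

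How a summit is given to a gene changed which genes were counted. With each IDR summit given to its nearest protein-coding start, 6 mitochondrial ribosomal genes had one, against 8.35% of all protein-coding genes, but mrps-35, mrpl-18 and mrpl-45 went to their neighbours and mrpl-20, mrpl-28, mrpl-51 and mrpl-53 came in. Windows of 500 bp upstream and 100 bp downstream kept mrps-35, mrpl-18 and mrpl-45, 3 genes, against 5.1% of all. Windows of 2000 bp upstream and 500 bp downstream gave 8 genes, against 9.15%, adding mrps-18.C, mrps-21 and mrps-28. The 5′-most start of each gene alone gave the same 5 genes, against 6.12%. Any overlap of peak and window gave 7 genes, against 7.36%, and the strongest 965 IDR peaks gave 4, all but mrpl-45, against 3.7%.

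The arrangement of the genes on the chromosomes bears on where a start is. In C. elegans many genes are transcribed together from 1 promoter as operons, with short gaps between members, so that the start annotated for a downstream gene need not have a promoter of its own. Operon annotation was not used here, and only distances on the same strand were measured. The start of 29 of the 70 mitochondrial ribosomal genes lay under 500 bp past the end of another protein-coding gene on the same strand, or inside it (41.4%), against 20.1% of all protein-coding genes and 10.3% of the cytosolic ribosomal genes. These counts include starts that overlap the gene ahead, which were 2 of the 29, mrpl-1 and mrps-27 (6.9%, against 10.5%). The gap had a median of 105 bp, against 149.5 bp for all such genes.

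The counts were split by this position. An IDR summit lay at 1 of the 29 (3.45%, against 3.91% of all genes close behind another), namely mrpl-23, and at 4 of the other 41 (9.76%, against 7.47% of all genes not close behind another). A pooled region lay at 9 of the 29 (31%, against 26.3%) and at 27 of the 41 (65.9%, against 32.7%). No region in any list was found at 18 of the 29 (62.1%, against 62.4% of all genes close behind another) and at 9 of the 41 (22%, against 57% of all genes not close behind another). The difference between the positions was not tested.

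IDR summits were also looked for at the first gene of each run of such closely spaced genes. This rule was chosen after seeing the data, and its difference from the background was not tested. Of the 29 mitochondrial ribosomal genes, 9 lay in a run whose first gene had an IDR summit (31%, 95% Wilson interval 17.3 to 49.2%), against 13.7% of all genes close behind another. The strongest was at F29B9.11, ahead of mrps-21, with a pooled signal of 355, and 215 in replicate 1 and 140 in replicate 2. Next came nrde-2, a nuclear RNA interference gene ahead of mrps-14, with 341, and 203 in replicate 1 and 135 in replicate 2. The gene eif-3.E, for a translation initiation factor subunit, 2 genes ahead of mrps-30, had 271, and 171 in replicate 1 and 103 in replicate 2.

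The other 6 first genes had pooled signals from 178 to 124. Among them rpn-3, a proteasome subunit gene, was ahead of mrpl-32 (178), and tag-124 was 4 genes ahead of mrpl-53 (150). Ahead of mrpl-54 was clsp-1 (138), and ahead of mrps-18.C was T14B4.3 (136). The gene atp-2, for the beta subunit of the mitochondrial ATP synthase, was 2 genes ahead of mrps-26 (129). The cytosolic chaperonin gene cct-2 was ahead of mrpl-50 (124). Of these 9 mitochondrial ribosomal genes, mrps-18.C and mrpl-50 had a pooled region of their own, of 36.1 and 30.4. Counting a summit at the gene or at the first gene of its run, a rule chosen after seeing the data, gave 14 of the 70 mitochondrial ribosomal genes (20%), against 9.22% of all protein-coding genes. Whether these genes are transcribed from the upstream promoters was not tested.

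**Figure D5:**
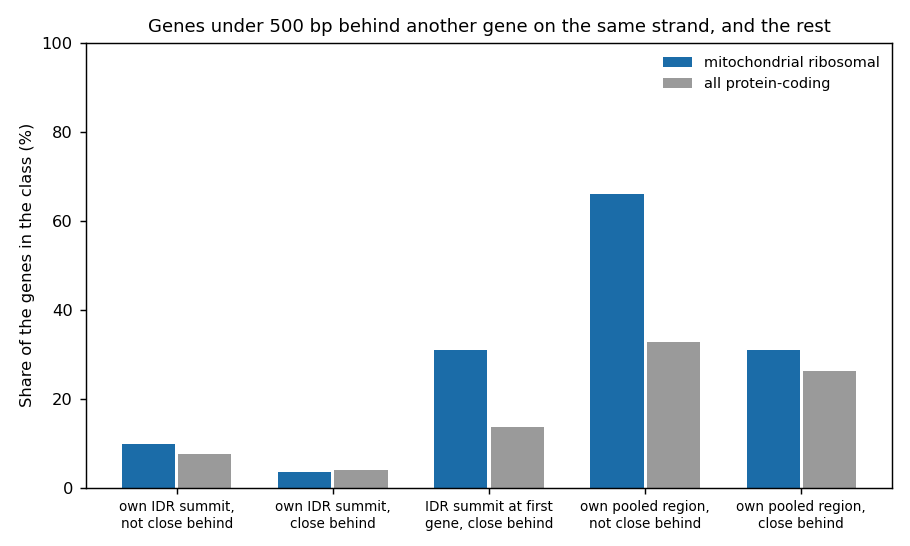
Share of genes, in percent, with an IDR summit or a pooled region, for genes whose start lies under 500 bp behind another gene on the same strand (close behind) and for the others, with mitochondrial ribosomal genes in blue (29 close behind and 41 not) and all protein-coding genes in grey (4016 and 15957). At the first gene of the run, a rule chosen after seeing the data, the shares with an IDR summit are 31% and 13.7%. For an own pooled region of genes not close behind, the shares are 65.9% and 32.7%.

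The genes were unevenly spread over the chromosomes. Chromosome III held 22 of the 70 (31.4%), against 13.2% of all protein-coding genes, and chromosome X held 0, against 13.7%. An IDR summit was at 2 of the 15 mitochondrial ribosomal genes on chromosome I, against 8.93% of the protein-coding genes there, at 2 of the 22 on chromosome III, against 9.73%, and at 1 of the 10 on chromosome V, against 4.06%. It was at 0 of the 12 on chromosome II, against 6.32%, and at 0 of the 11 on chromosome IV, against 6.16%.

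The words searched were also counted over the weaker regions and over promoters. Within 50 bp of the 35 pooled summits at mitochondrial ribosomal genes, the RUNX core was at 3 (8.57%), GAGAGA at 4 (11.4%) and ACGCAG at 2 (5.71%). Over the 5275 pooled summits at any protein-coding start these were 9.69%, 17.4% and 8.68%. The core stayed near the background share with a wider search. It was within 100 bp at 17.1% of the 35, against 16.1%, and in the whole region at 11 of the 35 (31.4%), against 26.6%. In the whole region GAGAGA was at 9 of the 35 (25.7%), against 41.7%, and ACGCAG at 3 (8.57%), against 20.7%. In the promoters, from 250 bp upstream to 50 bp downstream of the 5′-most start, the core was in 6 of the 70 (8.57%), in mrpl-15, mrpl-28, mrpl-47, mrps-7, mrps-18B and mrps-21, against 15% of all 19973 promoters. GAGAGA was in 15 (21.4%, against 21.8%) and ACGCAG in 6 (8.57%, against 8.23%). A match is only the presence of these letters.

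Other genes of mitochondrial gene expression were described from lists chosen with earlier results known. Of 13 translation factor and ribosome assembly genes, 3 had an IDR summit (23.1%, against 6.75% of all protein-coding genes). They were mma-1, the relative of mammalian LRPPRC, with a pooled signal of 161, tufm-2, an elongation factor Tu gene, with 119, and gfm-1, an elongation factor G gene, with 113. Of these, gfm-1 alone was among the 1931 strongest regions of both replicates, 1 of 13 (7.69%, against 5.15%). In replicate 2, mma-1 had 29.6 at rank 3150 and tufm-2 had 35.5 at rank 2288, while in replicate 1 mma-1 had 128 at rank 336 and tufm-2 had 77.7 at rank 1170. The list's dap-3, for a protein of the small subunit that the symbol rule leaves out, had no region.

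Of 12 aminoacyl-tRNA synthetase genes of mitochondria, 1 had an IDR summit (8.33%), the glutamyl-tRNA synthetase gene ears-2. Its pooled signal of 561 at rank 11 was higher than at any mitochondrial ribosomal gene, with ranks of 12 in replicate 1 and 13 in replicate 2. Of 16 genes of mitochondrial DNA upkeep and stress response, 3 had one (18.8%), the chaperonin gene hsp-60 with 325, the single-stranded DNA-binding protein gene mtss-1 with 158 and the prohibitin gene phb-2 with 101. Of these, hsp-60 alone was among the 1931 strongest regions of both replicates, 1 of 16 (6.25%, against 5.15%). In replicate 2, mtss-1 had 31.0 at rank 2883, and in replicate 1, phb-2 had 55.4 at rank 2202. A pooled region of any strength lay at 12 of the 16 (75%), against 31.4% of all protein-coding genes. Among those below the cut were the stress regulator atfs-1, with 90.2, and the chaperone gene hsp-6, with 83.5. In replicate 2, atfs-1 had 20.0 at rank 6821, and in replicate 1, hsp-6 had 41.2 at rank 4023.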

How the data were processed

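RNT-1 ChIP-seq of 2 biological replicates, per the labels, was deposited as narrowPeak lists on 2 builds (ce10 and ce11). Each replicate has a list, a pooled list was called on both, and an IDR list was cut from them, all with a control alignment, per the file descriptions deposited with the samples. The authors deposited the signal as a score whose scale is not stated. The −log10 q-value the authors deposited was not used for ranking. The aligner, the caller and the cut of the IDR are unknown: not given in the sources used here. Read depth is unknown, and intervals (95%, Wilson) and the limit for a count of 0 (3 counts) cover counting error only.

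Genes came from Ensembl release 115 on WBcel235, with 29314 starts of protein-coding genes, and sequences from the RefSeq assembly. Positions are 1-based. A region's summit is the start plus the deposited offset, and a gene's signal is that of its strongest region in the window. Lists on ce10 were used by counts only. Scripts ran in Python 3.11.15 with pandas 2.3.3, numpy 2.4.6, scipy 1.17.1 and matplotlib 3.10.9, and were tested on simulated peaks. Genes, windows and lists were chosen with earlier results of these data known. The rule for named genes gave full values for genes with an IDR summit, for the 5 next by pooled signal and for mrps-5, and named each pathway gene with an IDR summit. Other genes were named after their values were seen. In the pathway lists, 7 translation and 3 synthetase symbols were not in the annotation. No statistical test was made, as there is 1 group and genes are not replicates.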

Additional observations from a re-analysis of the deposited data

How the results depend on the processing

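The count of 5 genes with an IDR summit became 3 with start windows of 500 bp to 100 bp, without mrpl-15 and mrpl-23, and 8 with windows of 2000 bp to 500 bp. It was 10 with as many pooled regions as the ce10 list holds and 14 with the first gene of the run counted as well, an alternative chosen after seeing the data. Leaving out a replicate gave 5 to 7. With each summit given to its nearest start it was 6, of which 2, mrpl-15 and mrpl-23, were among the 5. The other alternatives for this count gave 4 to 7. The median signal of 54.3 was 29.8 with genes that have no region counted as 0, and 22.4 to 42.5 in single replicates, whose scores have other ranges. The RUNX core was at 0 of the 5 summits within 100 bp and in 1 of the 5 whole peaks. Close-behind genes numbered 22 at under 200 bp (31.4%, against 11.6% of all protein-coding genes and 5.13% of the cytosolic ribosomal genes). At under 1000 bp they numbered 36 (51.4%, against 30.8% of all and 30.8% of the cytosolic ribosomal genes). No paired analysis was possible because the samples form 1 group. With 5 genes past the cut, small differences in share were not detectable.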
